A study of Mus musculus with 4 samples.

Results

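The genes of the cytoplasmic ribosome were compared between Lgr5+ and Lgr6+ cochlear progenitors. They were chosen by symbol alone, as the table rows named Rpl or Rps with a number, together with *Rplp0*, *Rplp1*, *Rplp2* and *Rpsa*, and without the S6 kinases. The rule took 85 of 23997 genes, 52 of the large subunit and 33 of the small subunit. The values compared are FPKM from RNA-Seq, which count sequenced fragments per kilobase of transcript, scaled to the number of mapped fragments. Cochleae were taken at postnatal day 3, and EGFP+ cells were collected by flow cytometry from the line Lgr5-EGFP-Ires-CreERT2 as Lgr5+ progenitors and from the line Lgr6-EGFP-Ires-CreERT2 as Lgr6+ progenitors. All mice were labelled C57BL/6, and in both lines the reporter is read out from the locus of the gene it marks. The labels give 2 samples for each population, whereas the methods describe 3 fractions split from 1 RNA extraction. The table holds 1 combined FPKM for each population, so no difference below has a replicate check and no test was made.

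A ribosome is built from a small subunit, which reads the mRNA, and a large subunit, which forms the peptide bonds, and each carries its own set of proteins on a ribosomal RNA core. Nearly every one of these proteins is present once per ribosome, so growing cells keep their mRNAs abundant and in proportion. Most of these mRNAs begin with a run of pyrimidines (the 5′ terminal oligopyrimidine or TOP motif), through which mTOR signaling controls their translation together with that of several translation factors.

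The labels were first set against the marker genes. *Sox2*, a transcription factor of supporting cells and prosensory progenitors, was present in both populations, with FPKM of 139.6 in Lgr5+ and 54.8 in Lgr6+ progenitors. *Lgr6*, the receptor used for the Lgr6+ sort, had FPKM of 2.06 in Lgr5+ and 2.90 in Lgr6+ progenitors. *Lgr5*, the receptor used for the Lgr5+ sort, had FPKM of 9.65 in Lgr5+ and 24.99 in Lgr6+ progenitors. Its level was thus lower in the population sorted for it. The paper describes Lgr6+ cells as a subpopulation of Lgr5+ cells, so *Lgr5* alone does not tell the sorts apart. All directions given here follow the names of the table's columns, and if those names were exchanged every direction would turn. Markers of other cochlear cells also differed. Of 6 hair cell genes, 5 passed 1.5-fold toward Lgr6+, against 28.5% of all genes with FPKM of at least 1 in either population. Their summed FPKM was 144 in Lgr5+ and 363 in Lgr6+ progenitors. The sum was 1.12 and 131 for 6 macrophage genes, where *Csf1r*, *C1qb* and *Tyrobp* were listed at 0 in Lgr5+. Most of the Lgr6+ sum came from *C1qb* (69.9) and *Tyrobp* (43.0), while *Ptprc* (0 and 0.008) and *Cx3cr1* (0.22 and 0.68) were under FPKM 1 in both populations. The sum was 47.1 and 412 for 6 mesenchyme and fibrocyte genes and 72.9 and 197 for 4 glial genes. It was 84.2 and 113 for 4 neuronal genes, of which only *Snap25* was higher in Lgr6+ (7.63 and 53.4), and 1.54 and 22.1 for 3 endothelial genes, where *Kdr* was listed at 0 in Lgr5+. Only the 5 erythroid genes had a lower sum in Lgr6+, 108 against 629. Of them, 4 were at least 1.5-fold higher in Lgr5+, against 23.3% of all genes with FPKM of at least 1 in either population. The part of these cells in the ribosomal protein values was not tested, and in sorted bulk samples fewer cells of a type cannot be told apart from less RNA per cell.

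Ribosomal protein genes took a larger share of the transcriptome in Lgr5+ than in Lgr6+ progenitors. Their FPKM summed to 166537 of 754163 (22.1%) in Lgr5+ and to 99243.5 of 627932 (15.8%) in Lgr6+ progenitors. The large subunit held 12.9% and 9.21% of the total, and the small subunit held 9.18% and 6.59%. Both subunits were lower by nearly the same proportion, since the sum of the small subunit divided by that of the large subunit was 0.712 in Lgr5+ and 0.716 in Lgr6+ progenitors. The median member had an FPKM of 1720.4 in Lgr5+ and 982 in Lgr6+ progenitors. Of the 50 genes with the highest FPKM, 30 were ribosomal protein genes in Lgr5+ and 21 in Lgr6+ progenitors, and of the highest 100 genes they were 53 and 41. The total FPKM of all genes in Lgr6+ was 83.3% of that in Lgr5+, while the sum of the ribosomal protein genes in Lgr6+ was 59.6% of that in Lgr5+.

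Gene by gene, a difference is given as log2(FPKM + 1) in Lgr6+ minus that in Lgr5+ progenitors, so a negative difference means a higher level in Lgr5+. The added 1 understates the difference of genes with low FPKM. A gene was kept when its FPKM reached 1 in either population or both, which left 13436 genes and 82 of the 85 members, 49 of the large and 33 of the small subunit. No member was kept through 1 population only, because the lowest FPKM among the 82 was 23.6 in Lgr5+ (*Rpl26*) and 26.3 in Lgr6+ (*Rpl7l1*). Of the kept members, 50 were at least 1.5-fold higher in Lgr5+ (61.0%), against 23.3% of all kept genes. Only *Rpl26* was at least 1.5-fold higher in Lgr6+, against 28.5% of all kept genes. The large subunit had 29 genes at least 1.5-fold higher in Lgr5+ (59.2%) and the small subunit had 21 (63.6%). At a 2-fold limit 17 members were higher in Lgr5+, 12 of the large and 5 of the small subunit, where 11.7% of all kept genes passed. By any amount 78 of 82 members were lower in Lgr6+, against 48.3% of all kept genes.

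The median difference was -0.72 for the large subunit (quartiles -0.99 and -0.50) and -0.70 for the small subunit (quartiles -0.90 and -0.55), while the median over all kept genes was 0.03. The members differed from each other with an SD of 0.43 across genes. The 1.5-fold limit cut through a dense stretch of values. *Rps21*, a small subunit protein, lay just past it with FPKM of 2272 and 1509 in Lgr5+ and Lgr6+ progenitors, a difference of -0.59. *Rpl23a*, which lines the polypeptide exit of the large subunit, lay just short of it with FPKM of 2156 and 1438, a difference of -0.58.

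**Figure D1:**
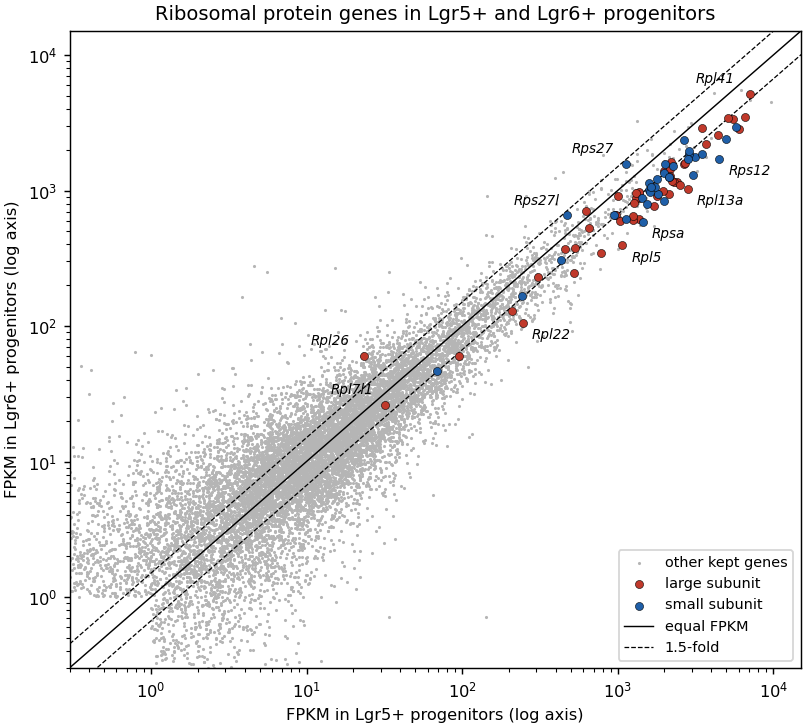
FPKM of each kept gene in Lgr5+ (horizontal, log axis) and Lgr6+ progenitors (vertical, log axis), with 1 point per gene and 1 combined value per population, and with genes under 0.3 in either population outside the axes. Most large subunit genes (red) and small subunit genes (blue) lie at the upper right below the line of equal FPKM, and *Rpl26*, *Rpl29*, *Rps27* and *Rps27l* lie above it.

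The most abundant large subunit mRNA was that of *Rpl41*, the smallest protein of the ribosome, which had FPKM of 7074 in Lgr5+ and 5189 in Lgr6+ progenitors and ranked 3 among all genes in both. Its difference of -0.45 was short of 1.5-fold. *Rpl13*, next in mean FPKM, had 6606 in Lgr5+ and 3515 in Lgr6+ progenitors, a difference of -0.91. *Rpl36* had 5557 and 3366, a difference of -0.72. *Rpl38*, a protein needed for the translation of Hox mRNAs in the mouse embryo, had 6033 and 2841, a difference of -1.09. The mRNAs at the top of the large subunit thus ranged from under 1.5-fold to more than 2-fold higher in Lgr5+.

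The largest differences of the large subunit were in *Rpl13a*, *Rpl5*, *Rpl22* and *Rpl4*. *Rpl13a*, which also acts outside the ribosome in the silencing of inflammatory mRNAs, is listed at chr7:45125563-45128745. It had FPKM of 2834 in Lgr5+ and 1030.0 in Lgr6+ progenitors, 2.75-fold higher in Lgr5+ (difference -1.46), and its rank among all genes was 27 in Lgr5+ and 93 in Lgr6+. *Rpl5*, listed at chr5:107900528-107987077, had 1074 and 395, 2.72-fold higher in Lgr5+ (difference -1.44). *Rpl22* had 245 and 106, 2.32-fold higher in Lgr5+ (difference -1.21). *Rpl4*, whose long loop reaches into the polypeptide exit tunnel, had 2533 and 1106, 2.29-fold higher in Lgr5+ (difference -1.20). *Rpl7a*, *Rpl27a*, *Rpl17*, *Rpl12*, *Rpl21*, *Rpl38*, *Rpl11* and *Rpl23* were the other large subunit genes past 2-fold, with differences between -1.19 and -1.05.

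*Rpl5* and *Rpl11* bind the 5S ribosomal RNA in a particle that joins the large subunit and can also hold back Mdm2, the ubiquitin ligase of p53. *Rpl11* had FPKM of 2406 in Lgr5+ and 1159 in Lgr6+ progenitors, a difference of -1.05. Both genes of the particle were thus past 2-fold toward Lgr5+, where 11.7% of all kept genes passed. The stalk of the large subunit, which recruits the elongation factors, is formed by *Rplp0*, *Rplp1* and *Rplp2* on a base with *Rpl12*. *Rplp0* had 1945 and 991 (difference -0.97), and *Rplp2* had 4431 and 2567 (difference -0.79). *Rpl12* had 1711 and 771 (difference -1.15). *Rplp1* had 5139 and 3446 with a difference of -0.58, just short of 1.5-fold. Of the 4 stalk genes, 3 passed 1.5-fold toward Lgr5+ (75%, against 61.0% of all kept members and 23.3% of all kept genes), and the median difference was -0.88.

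Around the polypeptide exit tunnel, 5 of 9 genes passed 1.5-fold toward Lgr5+ (23.3% of all kept genes) and 1, *Rpl26*, toward Lgr6+ (28.5% of all kept genes), with a median difference of -0.74. *Rpl39*, a small protein of the tunnel wall, had FPKM of 1012 in Lgr5+ and 906 in Lgr6+ progenitors, a difference of -0.16. *Rpl31*, at the tunnel's rim, had 462 and 371, a difference of -0.31. *Rpl26*, at the same rim, was the gene in the opposite direction and had 23.6 and 59.9, 2.54-fold higher in Lgr6+ (difference 1.31), although its sum with a copy gene was lower in Lgr6+ (difference -0.80). The only other large subunit gene above its Lgr5+ level in Lgr6+ was *Rpl29*, with 627 and 704, a difference of 0.17. *Rpl32* also had a small difference, -0.26, with FPKM of 3475 and 2898. *Rpl10*, one of the last proteins to join the large subunit, had 1981 and 1389, a difference of -0.51.

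In the small subunit the highest mean levels were in *Rps14*, *Rps19* and *Rps12*. *Rps14*, whose loss of 1 copy impairs red cell formation in humans, had FPKM of 5724 in Lgr5+ and 2950.1 in Lgr6+ progenitors, a difference of -0.96. *Rps19*, the gene most often mutated in Diamond-Blackfan anemia, had 4939 and 2406, a difference of -1.04. *Rps12*, a protein of the beak of the subunit listed at chr10:23785183-23787209, had 4500.2 and 1722, 2.61-fold higher in Lgr5+. Its difference of -1.39 was the largest of the small subunit, and its rank among all genes was 12 in Lgr5+ and 42 in Lgr6+ progenitors.

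*Rpsa* and *Rps16* followed *Rps12* in the size of their differences. *Rpsa*, also known as the laminin receptor precursor and listed at chr9:120127766-120132369, had FPKM of 1449.9 in Lgr5+ and 584 in Lgr6+ progenitors, 2.48-fold higher in Lgr5+ (difference -1.31). *Rps16*, whose tail reaches the decoding site, had 3072 and 1307 (difference -1.23). These and *Rps19* were among the 5 small subunit genes past 2-fold. *Rps6*, the substrate of the S6 kinases downstream of mTOR, had 1129.6 and 615, a difference of -0.88.

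Other small subunit genes were closer to equal levels. *Rps2*, *Rps3* and *Rps9* line the channel through which the mRNA enters, and their differences were -0.56, -0.50 and -0.36, all short of 1.5-fold. *Rps9* had FPKM of 2001 in Lgr5+ and 1559 in Lgr6+ progenitors. *Rps29* had 2662 and 2349, a difference of -0.18. Only *Rps27* and *Rps27l* were above their Lgr5+ level in Lgr6+, and neither passed 1.5-fold in the deposited values. *Rps27*, a zinc finger protein of the subunit listed at chr3:90212667-90213648, had 1135 and 1573 (difference 0.47), although its sum with a copy gene was lower in Lgr6+ (difference -0.14). *Rps27l*, its paralogue and a target of p53, had 475 and 656 (difference 0.46).

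**Figure D2:**
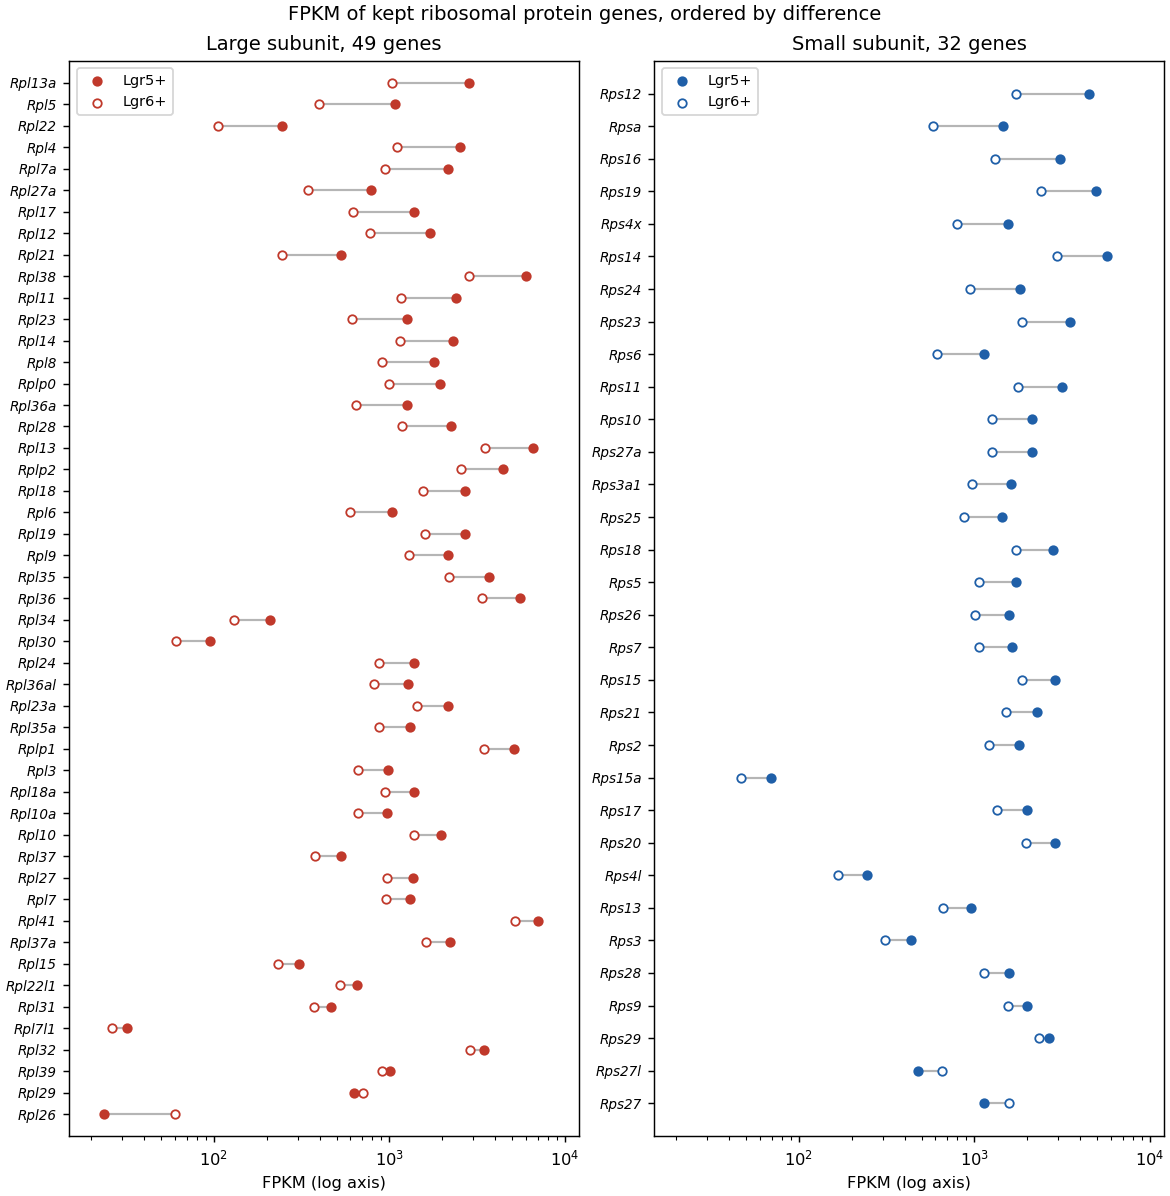
FPKM (log axis) of each of the 49 large subunit genes (left) and 32 of the small subunit genes (right) that were kept, with filled points for Lgr5+ and open points for Lgr6+ progenitors, ordered by log2 difference with the highest in Lgr5+ at the top. The open point lies left of the filled point in all but *Rpl29*, *Rpl26*, *Rps27l* and *Rps27*.

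Several members are paralogues of a core subunit gene, and they were compared as a share of the pair's summed FPKM. *Rpl3l*, the form of striated muscle, and *Rpl10l* and *Rpl39l*, forms of the male germ line, were listed at 0 in both populations and are the 3 members that were not kept. Their core genes were well above 0, with FPKM of 980.4 in Lgr5+ and 661 in Lgr6+ progenitors for *Rpl3*. *Rpl22l1* held more of its pair than *Rpl22* in both populations, 72.8% in Lgr5+ and 83.3% in Lgr6+, since *Rpl22l1* itself had FPKM of 654 and 526 (difference -0.31). *Rpl36al* and *Rpl36a* were at nearly equal levels in Lgr5+, 1269.5 and 1264, and the share of *Rpl36al* was 50.1% in Lgr5+ and 55.8% in Lgr6+ (differences -0.64 and -0.97). *Rps4l*, listed as a transcribed pseudogene in RefSeq, held 13.6% and 17.4% of its sum with *Rps4x*, which had 1546 and 794 (difference -0.96). *Rpl7l1*, a factor of ribosome assembly, held 2.37% and 2.69% of its sum with *Rpl7*. *Rps27l* held 29.5% and 29.4% of its sum with *Rps27*, counting the row of *Rps27* alone. With its copy *Rps27rt* added, *Rps27* had 2440 in Lgr5+ and 2222 in Lgr6+, while *Rps27l* had 475 and 656. The nearly equal shares therefore do not show an unchanged balance of the pair. Pairs this alike can exchange reads in the mapping, and the table cannot show how often that happened.

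The start sites of the members that the results turn on are shown because ribosomal protein genes are known for pyrimidine runs there. Each line gives 60 bases, 30 on either side of the transcription start annotated by RefSeq on GRCm38.p6. Capitals mark the longest run of a C followed by at least 5 further C or T, and a line with no capitals holds no such run. The first 4 lines are genes with the largest differences toward Lgr5+. The next 3 are genes whose own rows were higher in Lgr6+, and the last is the most abundant member. Their windows are chr7:45128716-45128775 (minus strand) for *Rpl13a*, chr5:107900498-107900557 (plus) for *Rpl5*, chr10:23787180-23787239 (minus) for *Rps12*, chr9:120127736-120127795 (plus) for *Rpsa*, chr11:68901536-68901595 (plus) for *Rpl26*, chr3:90213619-90213678 (minus) for *Rps27*, chr9:66946056-66946115 (plus) for *Rps27l* and chr10:128549139-128549198 (minus) for *Rpl41*.
Rpl13a: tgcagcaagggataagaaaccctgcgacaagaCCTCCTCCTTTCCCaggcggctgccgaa
Rpl5: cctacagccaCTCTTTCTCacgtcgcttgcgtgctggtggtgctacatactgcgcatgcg
Rps12: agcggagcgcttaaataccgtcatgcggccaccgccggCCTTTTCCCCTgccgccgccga
Rpsa: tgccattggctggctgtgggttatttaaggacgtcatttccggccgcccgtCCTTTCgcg
Rpl26: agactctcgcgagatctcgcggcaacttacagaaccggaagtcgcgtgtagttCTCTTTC
Rps27: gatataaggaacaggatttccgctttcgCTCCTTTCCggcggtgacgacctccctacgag
Rps27l: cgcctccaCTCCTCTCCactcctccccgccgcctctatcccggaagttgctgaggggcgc
Rpl41: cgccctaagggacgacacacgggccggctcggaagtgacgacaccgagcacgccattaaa

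Such a run was found both in genes high in Lgr5+ and in genes whose own rows were higher in Lgr6+. Of the latter, *Rpl26* and *Rps27* were lower in Lgr6+ when summed with their copy genes (differences -0.80 and -0.14). The run was 14 bases long in *Rpl13a*, 9 in *Rpl5*, 11 in *Rps12*, 6 in *Rpsa*, 7 in *Rpl26*, 9 in *Rps27* and 9 in *Rps27l*, and absent from the window of *Rpl41*. In *Rpl5* and *Rps27l* it began at -20 and -22 from the annotated start and ended before it, so it lay outside the annotated mRNA. Counted from the same start, it began at 3 in *Rpl13a*, 9 in *Rps12*, 22 in *Rpsa* and 24 in *Rpl26*. In these genes it lay inside the annotated mRNA but not at its first base. In *Rps27* it began at -2 and spanned the start. In *Rpl26* it reached the last base of the window, so its length may be cut. Promoter sequence was matched for 61 of the 82 kept members. A run lay within 30 bases of the start in 43 of the 61 (70.5%), against 40.1% of all 27025 starts and 39.1% of the starts of kept genes that are not members. The 43 members with a run had a median difference of -0.74 and the 18 without it had -0.69, and the part of the run in the difference was not tested. In the 300 bases around the start, the ETS motif CCGGAAG on either strand lay in 24 of the 61 (39.3%, against 9.12% of all starts and 17.2% of the kept genes that are not members), with median differences of -0.71 with it and -0.79 without. The YY1 motif AAGATGGC on either strand lay in 5 members (8.20%, against 2.88% and 4.63%). The letters TATAAA on either strand lay in 6 members (9.84%), a lower share than the 14.2% of all starts and a higher one than the 6.96% of the kept genes that are not members, with medians of -0.52 with them and -0.74 without. A match of letters is a description of the window and not a bound site.

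Several member rows share their listed position with another row of the table. This holds for 36 of the 85 members, and 22 of these share it with small nucleolar RNAs, which lie in introns of ribosomal protein genes. In 4 cases the other row is a near copy that RefSeq places on another chromosome, and reads of both cannot be kept apart with certainty. The row *Gm15772*, a transcribed pseudogene copy of *Rpl26*, had FPKM of 2810.1 in Lgr5+ and 1569 in Lgr6+ progenitors, so *Rpl26* itself held 0.831% and 3.68% of the sum of both rows. That sum was 2834 in Lgr5+ and 1629 in Lgr6+ with a difference of -0.80, so the higher Lgr6+ level of *Rpl26* held for its own row and not for the pair. *Rps27rt*, a copy of *Rps27*, had 1305 and 648 (difference -1.01). The sum of *Rps27* and *Rps27rt* was 2440 in Lgr5+ and 2222 in Lgr6+ (difference -0.14), of which *Rps27* held 46.5% in Lgr5+ and 70.8% in Lgr6+ progenitors. For *Rpl30* the sum with its copy *Gm12191* was 1424 and 823 (difference -0.79), and for *Rpl34* the sum with *Rpl34-ps1* was 1296 and 835 (difference -0.63). *Rpl26* and *Rps27* were thus the members whose direction differed between their own row and the sum.

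**Figure D3:**
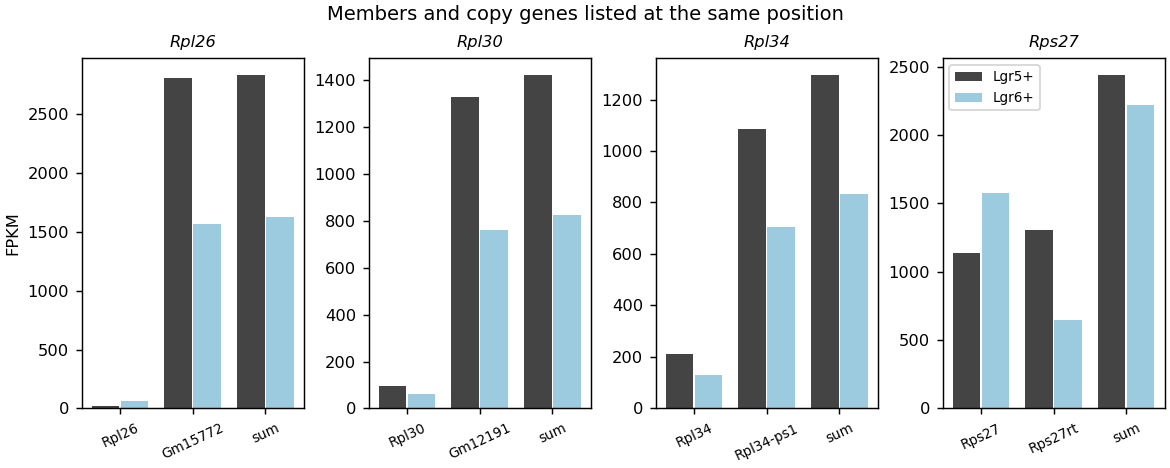
FPKM (linear axis from 0, scaled apart in each panel) of *Rpl26*, *Rpl30*, *Rpl34* and *Rps27*, of the copy gene listed at the same position, and of their sum, in Lgr5+ (dark bars) and Lgr6+ progenitors (light bars), with 1 combined value per bar. All 4 sums are lower in Lgr6+, by differences of -0.80, -0.79, -0.63 and -0.14.

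Among the members, the order of levels was nearly the same in both populations. Pearson's r between log2(FPKM + 1) in Lgr5+ and in Lgr6+ progenitors was 0.96 and Spearman's rho was 0.93 over the 82 kept members, which share libraries and transcript lengths. The difference was weakly related to transcript length (r -0.23 over 79 members with an annotated length) and to mean FPKM (r -0.34). Of the members with a median transcript of at most 723.5 bases, 23 of 40 were at least 1.5-fold higher in Lgr5+, with a median difference of -0.65. Of the longer ones 26 of 39 were, with a median of -0.76. The same limit was passed toward Lgr5+ by 23.3% of all kept genes. Both length classes were therefore lower in Lgr6+ progenitors at the median.

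Some parts of the ribosome that the symbol rule leaves out were set beside the members. *Fau*, which encodes a ubiquitin-like protein fused to a small subunit protein, had FPKM of 3215 in Lgr5+ and 1394 in Lgr6+ progenitors, 2.31-fold higher in Lgr5+. *Rack1*, a signaling scaffold on the head of the small subunit that the table lists as *Gnb2l1*, had 1365 and 598, a difference of -1.19. *Rps27a*, which encodes ubiquitin fused to a small subunit protein, is a member and had 2128 and 1263, a difference of -0.75. *Fau*, *Rack1* and *Rps27a* thus passed 1.5-fold toward Lgr5+.

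Genes of translation and ribosome assembly outside the ribosome itself were counted in the same way, against shares of 23.3% toward Lgr5+ and 28.5% toward Lgr6+ over all kept genes. By any amount 48.3% of all kept genes were lower in Lgr6+. All 17 non-ribosomal genes known for TOP mRNAs were lower by some amount, with differences from -1.34 to -0.17 and a median of -0.81, and 12 were at least 1.5-fold higher in Lgr5+. *Eef1a1*, which delivers aminoacyl-tRNA, had FPKM of 3968 in Lgr5+ and 2449 in Lgr6+ (difference -0.70). *Tpt1*, the translationally controlled tumor protein, had 3704 and 1773 (difference -1.06). *Eif3h*, a subunit of an initiation factor, had 287 and 113 (difference -1.34). Of 34 genes of ribosome biogenesis, 15 passed 1.5-fold toward Lgr5+ and 0 toward Lgr6+, while 19 were under 1.5-fold, and the median was -0.48. By any amount 28 were lower and 6 higher in Lgr6+. Among these *Ncl*, which encodes nucleolin, had 101 and 45.4 (difference -1.13), and *Polr1a*, the largest subunit of RNA polymerase I, had 9.17 and 2.31 (difference -1.62). *Polr1b*, the next largest subunit of that polymerase, had 1.60 and 2.50, a difference of 0.43.

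The mitochondrial ribosome and other abundant genes were closer to equal. Of 77 mitochondrial ribosomal protein genes, 18 passed 1.5-fold toward Lgr5+ (23.4%, against 23.3% of all kept genes) and 11 toward Lgr6+ (14.3%, against 28.5%), with a median difference of -0.13. There were 171 genes that are not members and have a mean FPKM of at least 500. By any amount 119 of them were lower in Lgr6+, against 48.3% of all kept genes, and the median difference of the 171 was -0.26. At least 1.5-fold higher were 40 in Lgr5+ (23.4%) and 10 in Lgr6+ (5.85%). With a mean FPKM of at least 1000 these were 19 and 3 of 67 genes (28.4% and 4.48%), with a median of -0.30. Few calls toward Lgr6+ were thus seen in other abundant genes too. None of these contrasts was tested, because each gene has 1 value per population.

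**Figure D4:**
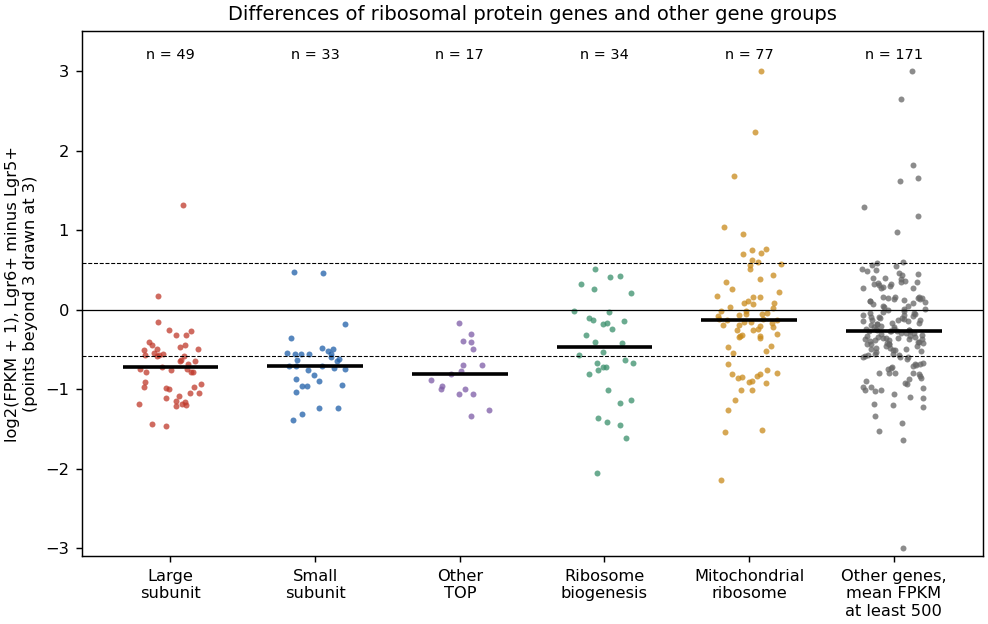
Differences in log2(FPKM + 1), Lgr6+ minus Lgr5+, of single kept genes (points) in each group, with the group median as a bar, solid and dashed lines at 0 and at 1.5-fold, and points beyond 3 drawn at 3. The medians are -0.72 and -0.70 for the large and small subunits, -0.81 for other TOP genes, -0.48 for ribosome biogenesis, -0.13 for the mitochondrial ribosome and -0.26 for other genes with a mean FPKM of at least 500.

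How far the members stood below 0 depended on how the populations were scaled to each other. The direction of both medians held under each scaling tried. When both populations were scaled to the same FPKM sum, the median of all kept genes shifted by 0.26 to 0.30, and the medians of the large and small subunits became -0.46 and -0.44. Such a factor moves all genes together, so the distance of the subunits from the median of all kept genes, -0.76 and -0.74, is nearly fixed by its construction. At the same sum, 18 large and 10 small subunit genes passed 1.5-fold toward Lgr5+, where 16.8% of all kept genes did. Under quantile normalization, which gives both populations the same distribution of values, the medians were -0.28 and -0.27. Their distances from the median of all kept genes, which was -0.03, were -0.25 and -0.23, and 72 of 82 members were still lower in Lgr6+. Only 12 large and 4 small subunit genes then passed 1.5-fold toward Lgr5+, which is no larger a share than the 26.5% of all kept genes that did. *Rps27* and *Rps27l* passed 1.5-fold toward Lgr6+ under both scalings, as did 38.7% of all kept genes at the same sum and 24.7% under quantile normalization.

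**Figure D5:**
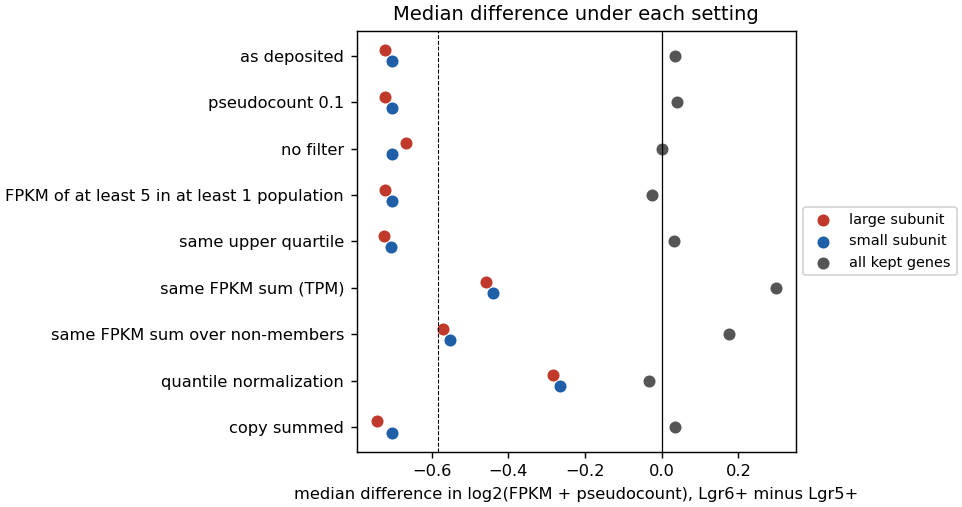
Median difference of the large subunit genes (red), small subunit genes (blue) and all kept genes (grey) under each setting, in log2(FPKM + pseudocount), Lgr6+ minus Lgr5+, with a dashed line at 1.5-fold higher in Lgr5+. Both subunit medians stay below 0 under each setting, between -0.74 and -0.27, and those of all kept genes lie between -0.03 and 0.30.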

How the data were processed

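The authors sequenced SMART-Seq libraries of sorted cells, used Trimmomatic for trimming, TopHat for mapping, RefGene for annotation and Cufflinks for expression, and versions are not given in the sources used here. The genome is mm9 in the paper and mm10 in the submitters' processing notes. All 85 members overlap their RefSeq position on GRCm38, so positions are given on GRCm38, with the starts counted from 1. The deposited values are FPKM, 1 combined by the authors from the replicates of each population. The deposited table also holds the log2 fold change, *p*-value and *q*-value of the authors' own comparison, which were not used. The table has 0 other columns of per-sample values.

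The table holds no counts. For genes with 1 annotated transcript, FPKM multiplied by length fell on steps that put the depth of Lgr6+ at 3.21 times that of Lgr5+ if a step is 1 fragment in each, so levels near 0 are less precise in Lgr5+, while the kept members are far above them.

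Here a gene was kept when its FPKM reached 1 in either population, differences were taken on log2(FPKM + 1), and a gene was counted past 1.5-fold. The limma fit planned for values of single libraries could not be made. The members and gene lists were chosen with earlier results of these data known. Genes were named by a rule, which took in each subunit the 3 highest mean levels and the 4 largest differences in each direction, members under FPKM 1, paralogues with their core genes, the stalk, the 5S particle, *Fau* and *Rack1*. Some genes that the rule takes are not reported here. Other genes, the motifs and the summing with copy genes were chosen after values were seen. Start sites came from the RefSeq promoter table of GRCm38.p6, taking the first listed start, and transcript lengths from GENCODE vM1. Alternatives changed the pseudocount, the filter, the scaling and the fold. Calculations, tested on simulated data, ran in Python 3.11.15 with pandas 2.3.3, numpy 2.4.6 and scipy 1.17.1, and plots were drawn with matplotlib 3.10.9.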

Additional observations from a re-analysis of the deposited data

How the results depend on the processing

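Both subunit medians kept their direction under each alternative, and their size depended on the scaling. The count of genes at least 1.5-fold higher in Lgr5+ was 29 for the large and 21 for the small subunit in the deposited values. It was 18 and 10 with both populations at the same FPKM sum, 12 and 4 under quantile normalization, and 12 and 5 at a 2-fold limit. Of all kept genes, 23.3% passed toward Lgr5+ in the deposited values, 16.8% at the same sum, 26.5% under quantile normalization and 11.7% at 2-fold. With both at the same sum over non-members the small subunit count was 13, where 19.0% of all kept genes passed toward Lgr5+. Small subunit genes at least 1.5-fold higher in Lgr6+ numbered 0 in the deposited values and 2 under each of these 3 scalings (*Rps27* and *Rps27l*). The share of all kept genes past 1.5-fold toward Lgr6+ was 28.5% in the deposited values and 38.7% at the same sum. It was 33.6% at the same sum over non-members and 24.7% under quantile normalization. The medians of the large and small subunits were -0.73 and -0.71 at the same upper quartile, -0.46 and -0.44 at the same sum, -0.57 and -0.55 at the same sum over non-members, and -0.28 and -0.27 under quantile normalization. Without the filter the large subunit median was -0.67, because the 3 genes at 0 in both populations enter it. The same sum shifted the median of all kept genes by 0.26 and the sum over non-members by 0.14. Of all kept genes past 1.5-fold, 55.0% were higher in Lgr6+ in the deposited values and 69.7% at the same sum. Summing each member with its copy gene, which was added after seeing the data, gave a large subunit median of -0.74 and 0 large subunit genes at least 1.5-fold higher in Lgr6+, and turned the difference of *Rpl26* to -0.80. Without the most abundant member, the ribosomal protein genes held 21.3% of the summed FPKM in Lgr5+ and 15.1% in Lgr6+. Of 38 named genes, 33 stayed on their side of 1.5-fold at the same sum and 27 under quantile normalization. The causes were not tested beyond what these constructions show.

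No paired analysis was possible because the table holds 1 combined value per population, and for the same reason leaving out each replicate was not run. No value here carries a replicate error, and the replicates in the methods share 1 RNA extraction.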

Other observations

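The S6 kinases, whose symbols begin like those of the small subunit but which phosphorylate *Rps6* and other targets, did not share 1 direction. *Rps6kb1*, the main S6 kinase downstream of mTOR, had FPKM of 17.3 in Lgr5+ and 6.84 in Lgr6+ progenitors, a difference of -1.22, and its relative *Rps6kb2* had 9.39 and 12.8, a difference of 0.41. Of the Rsk kinases, *Rps6ka3* had 9.56 and 2.62 (difference -1.54), *Rps6ka6* had 3.06 and 10.3 (difference 1.48), and *Rps6ka1* had 21.8 and 22.6 (difference 0.05). These genes were chosen after their values were seen, and their levels are far below those of the ribosomal protein genes.

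Rows of processed copies of ribosomal protein genes also went both ways. *Rplp2-ps1* had FPKM of 56.8 in Lgr5+ and 26.2 in Lgr6+ progenitors (difference -1.09), and *Rps19-ps3* had 57.3 and 29.7 (difference -0.92). *Rpl31-ps12* had 36.5 and 89.7, a difference of 1.27 where *Rpl31* itself had -0.31. *Rpl14-ps1* was listed at 0 in Lgr5+ and had 1.39 in Lgr6+ progenitors.

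Among the genes of ribosome biogenesis, *Lyar*, a nucleolar protein, had FPKM of 65.3 in Lgr5+ and 14.99 in Lgr6+ progenitors, a difference of -2.05, and *Nop58* and *Dkc1*, core proteins of small nucleolar particles, had differences of -1.45 and -1.41. *Nmd3*, which carries the large subunit out of the nucleus, had 19.8 and 28.8, a difference of 0.52 and the highest of the 34 genes.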
